A study of Mus musculus with 9 samples.

Results

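The 10 genes described here encode the PERK arm of the unfolded protein response and the integrated stress response that it shares with other kinases: Eif2ak3, Atf4, Atf5, Ddit3, Trib3, Ppp1r15a, Chac1, Asns, Sesn2 and Nupr1. They were taken by symbol from the 55291 genes of the deposited tables, and all 10 were present and passed the filter on low counts. Messenger RNA was measured in olfactory sensory neurons, which line the nasal cavity and detect odorants, from mice in which 1 odorant receptor allele also encodes a fluorescent protein. The genotypes were Olfr160-IRES-mCherry, Olfr73-IRES-GFP and Olfr1507-IRES-GFP, and the groups are called Olfr160, Olfr73 and Olfr1507 after the tagged receptor. The main olfactory epithelium was digested with papain, and DAPI-low cells with high GFP or mCherry were sorted. Each group held 3 libraries, 9 in all, although the series' design text speaks of duplicates. The reporter differed between groups along with the receptor, so the receptor and the fluorescent protein cannot be told apart for Olfr160. Strain, age and sex were not given in the sources used here, nor was it stated whether replicate libraries were made from different animals.

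PERK, the product of Eif2ak3, is a kinase in the membrane of the endoplasmic reticulum that is activated by unfolded protein and phosphorylates the translation factor eIF2alpha. Most translation then slows, while messages with upstream open reading frames, among them those of the transcription factors ATF4, ATF5 and CHOP (Ddit3), are translated better. These factors raise genes of amino acid supply, redox balance and feedback, and the phosphatase subunit encoded by Ppp1r15a reverses the kinase. In olfactory sensory neurons, PERK and ATF5 act when a newly chosen odorant receptor enters the endoplasmic reticulum, and they are known for their part in stabilising receptor choice and in neuronal maturation. Much of this control acts on translation and phosphorylation, which messenger RNA levels do not measure.

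The libraries held 17212807 to 36230606 expected counts, and 12197 to 16791 genes had at least 10 counts. Transcripts of the tagged receptor made up 2.08%, 4.54% and 10.1% of all Olfr counts in Olfr160 libraries 1, 2 and 3, 22.8% to 32.8% in Olfr73 and 85.1% to 94.7% in Olfr1507. Markers of mature neurons were present in every library, with Omp between 8105 and 21754 TPM (a transcript level scaled for gene length and depth). Summed counts of 18 markers of sustentacular (supporting) and gland cells made up 2.53% to 5.27% of the counts in Olfr160, 0.381% to 0.734% in Olfr73 and 0.0287% to 0.0632% in Olfr1507, and the markers at 0 were Sox9, Lcn11 and Aqp5 in Olfr1507 library 1 and Aqp5 in library 3. Respiratory epithelium markers made up 0.527% to 1.46%, 0.117% to 0.257% and 0.00989% to 0.0209% in the same order. These marker shares differed between the groups, and the part of such cells in the results below was not tested. Olfr160 libraries 1 and 2 stood apart by their receptor shares, and results that rest on them are also given with library 3 as the only Olfr160 library. Library 3 itself had a lower receptor share (10.1%) and a higher sustentacular and gland share (2.53%) than any Olfr73 or Olfr1507 library.

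In the promoter windows of 4 of the 10 genes stood the core of the C/EBP-ATF response element, TGATGNAA, to which ATF4 binds as a dimer with C/EBP factors. RefSeq windows (GRCm38.p6, the build called mm10) run from 250 bases before to 50 bases after the start of transcription, and all 10 genes had one. The core was searched on both strands and occurred in 3.97% of the 32851 windows of all genes. The 4 stretches below are shown because they carry that core, in capitals, in Chac1, Asns, Nupr1 and Trib3, each read 5′ to 3′ along the strand of its gene. In Chac1 the match lies 193 bases before the start, outside any exon, within the printed stretch chr2:119351013-119351092 on the plus strand. The Asns and Nupr1 matches lie 23 and 110 bases before the start and inside exons of other transcript starts (printed stretches chr6:7693214-7693243 and chr7:126625562-126625591, both minus strand). The Trib3 match begins at base 15 after the start (printed stretch chr2:152344028-152344057, minus strand).
Chac1: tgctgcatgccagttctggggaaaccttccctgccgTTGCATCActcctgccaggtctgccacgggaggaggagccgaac
Asns: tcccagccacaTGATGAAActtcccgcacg
Nupr1: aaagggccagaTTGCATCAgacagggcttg
Trib3: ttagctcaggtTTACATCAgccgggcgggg
Chac1 and Nupr1 hold the same 8 bases, which read TGATGCAA on the other strand, a form found in 0.895% of all windows. The form in Asns, TGATGAAA, occurred in 1.02%. A second motif, the endoplasmic reticulum stress element (ERSE), to which ATF6 with NF-Y binds, was searched in the same windows and occurred in 0.119% of them, and it was not found in those of the 10 genes. These matches describe the letters only, and no binding was measured.

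Transcripts of 6 of the 10 genes were higher in the Olfr1507 than in the Olfr160 libraries (Atf4, Atf5, Ddit3, Trib3, Asns and Sesn2) and 1 was lower (Nupr1), by edgeR's quasi-likelihood test at a Benjamini-Hochberg adjusted p under 0.05. Of all 16399 genes tested, 20.7% were called higher and 27.7% lower in this comparison. Against Olfr73, 5 of the 10 were higher in Olfr1507 (Atf4, Atf5, Trib3, Asns and Sesn2) and Nupr1 was lower, where 14.5% of all genes were called higher and 19.9% lower. Between Olfr73 and Olfr160 only Ddit3 was called higher and only Nupr1 lower among the 10, where 7.45% of all genes were called higher and 10.5% lower. Over the 3 groups together, 7 of the 10 passed the F test, as did 50.8% of all genes. The median log2 fold change of the 10 was 0.52 in Olfr1507 over Olfr160, 0.42 in Olfr1507 over Olfr73 and 0.094 in Olfr73 over Olfr160, beside medians of -0.14, -0.15 and -0.012 over all genes tested. The comparisons share groups and are not independent of each other.

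The counts depended on how the libraries were scaled. With trimmed-mean (TMM) scaling the counts were those above, while scaling to library size alone gave 3 genes higher and 1 lower in Olfr1507 over Olfr160, and 2 higher and 1 lower over Olfr73. Library size alone also moved the median of all genes to -0.56 and -0.47 in these comparisons, so that directions near 0 are relative to the scaling. When libraries were instead scaled to 23 olfactory transduction genes, the all-gene medians were -1.69, -1.01 and -0.70 in the 3 comparisons. The 10 genes then gave 5 lower calls in Olfr1507 over Olfr160, 3 in Olfr1507 over Olfr73 and 4 in Olfr73 over Olfr160. That scaling used the summed counts of the 23 genes, in which the most abundant weigh most. With it Trib3 (log2 fold change 0.045 over Olfr160 and 0.14 over Olfr73) and Atf5 (0.17 and 0.16) were close to the change of that sum. The median TMM-scaled log2 fold change of the 23 genes was 1.21 in Olfr1507 over Olfr160 and 0.65 over Olfr73. All levels and folds below are TPM or TMM-scaled values.

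**Figure D1:**
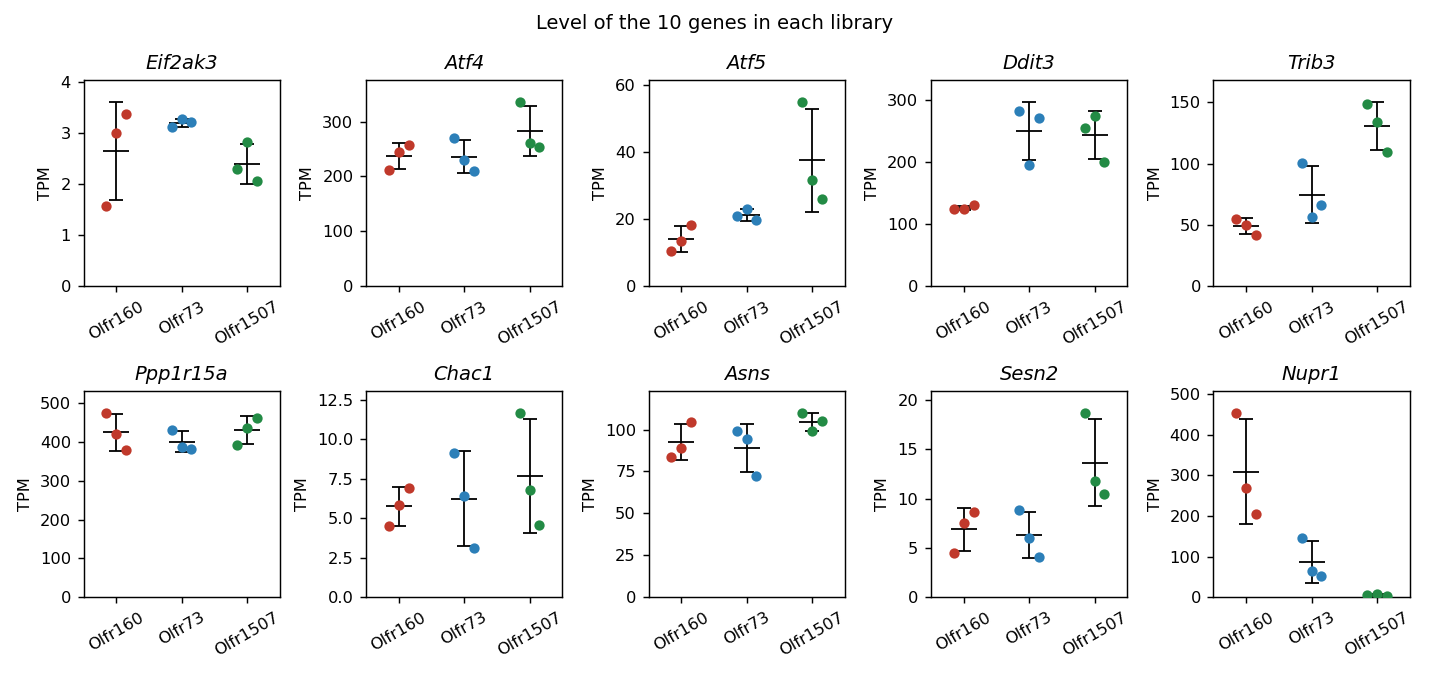
TPM of each of the 10 genes (y axis, linear, from 0) in every library of the 3 groups (points), with the group mean and SD (black lines, n = 3). The Olfr1507 libraries lie above all other libraries for Atf5, Trib3 and Sesn2 and below them for Nupr1, the Olfr160 libraries lie below all others for Ddit3, and at least part of the groups overlap for Eif2ak3, Ppp1r15a, Chac1, Asns and Atf4.

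With TMM scaling no comparison was called for either end of the eIF2alpha switch. Eif2ak3 (chr6:70844515-70905245, plus strand), which encodes PERK, was at 1.56, 3.00 and 3.37 TPM in Olfr160 libraries 1 to 3, at 3.11, 3.26 and 3.21 in Olfr73 and at 2.30, 2.81 and 2.06 in Olfr1507. The Olfr160 libraries spanned the values of both other groups. Its log2 fold change was 0.067 (SE 0.32) in Olfr1507 over Olfr160, -0.14 (SE 0.32) in Olfr1507 over Olfr73 and 0.21 (SE 0.32) in Olfr73 over Olfr160, with edgeR adjusted p of 0.88, 0.759 and 0.692. It rested on 79 to 248 counts per library, the lowest mean level per length among the 10 genes, and 485 of its 6026 exonic bases overlap a gene model of unknown product on the opposite strand.

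Ppp1r15a (chr7:45522916-45526268, minus strand) encodes GADD34, the inducible phosphatase subunit that dephosphorylates eIF2alpha, and had the highest mean level per length of the 10 genes in every group. It stood at 475, 421 and 381 TPM in Olfr160, 432, 388 and 382 in Olfr73 and 394, 436 and 464 in Olfr1507. The 3 groups overlapped in TPM. With TMM-scaled CPM the lowest Olfr1507 library (504.0) lay just above the highest Olfr73 library (502.3). With 9339 to 17536 counts per library its log2 fold changes of 0.19, 0.24 and -0.048 (SE 0.12 each) in the 3 comparisons had adjusted p of 0.218, 0.150 and 0.816. Its highest library was only 1.25 times its lowest, the narrowest range of the 10.

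The transcription factors differed more. Atf4 (chr15:80255184-80257541, plus strand), the central factor of the response, was at 212, 244 and 257 TPM in Olfr160, 269, 230 and 209 in Olfr73 and 335, 260 and 254 in Olfr1507. Olfr1507 library 1 was the highest of all 9, and the other Olfr1507 libraries lay within the range of the other groups in TPM. The log2 fold change was 0.45 (SE 0.13, edgeR adjusted p = 0.0183) over Olfr160 and 0.41 (SE 0.13, adjusted p = 0.0346) over Olfr73. Between Olfr73 and Olfr160 it was 0.032 (SE 0.13, adjusted p = 0.888). The call over Olfr160 was lost without Olfr160 library 1 (0.38) or Olfr1507 library 1 (0.34), with RLE size factors (0.35), and with Olfr160 library 3 as the only Olfr160 library (0.36). With library size alone neither call was made (0.029 and 0.098). That over Olfr73 was lost without Olfr160 library 2 (0.42), Olfr73 library 2 (0.43) or 3 (0.35), or Olfr1507 library 1 (0.30) or 2 (0.47).

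Atf5 (chr7:44812256-44816658, minus strand), the factor known to carry the response in olfactory sensory neurons, had its lowest levels in Olfr160, at 10.4, 13.4 and 18.2 TPM. It was at 20.9, 23.1 and 19.6 TPM in Olfr73 and at 54.9, 31.5 and 26.0 in Olfr1507. No libraries of any 2 groups overlapped, and Olfr1507 spread the most (37.5 ± 15.3 TPM, SD, n = 3, against 13.99 ± 3.90 in Olfr160 and 21.2 ± 1.78 in Olfr73). The log2 fold change was 1.64 (SE 0.30, edgeR adjusted p = 0.00201) in Olfr1507 over Olfr160, 1.01 (SE 0.29, adjusted p = 0.0259) over Olfr73 and 0.63 (SE 0.29, adjusted p = 0.168) in Olfr73 over Olfr160. The order of the group levels was Olfr160, Olfr73 and Olfr1507, and the first pair did not pass the test. Leaving out Olfr73 library 1 or 3 ended the call over Olfr73 (1.00 and 0.97), as did leaving out Olfr1507 library 1, without which it fell to 0.66. With Olfr160 library 3 as the only Olfr160 library the fold over Olfr160 was 1.25 and was not called. Of its 1993 exonic bases, 82 overlap Nup62 and Il4i1 on the opposite strand, and the library kit does not mark strand.

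Ddit3 (chr10:127290774-127296288, plus strand) encodes CHOP, the factor associated with prolonged stress, and it was the gene for which Olfr160 stood alone. Its levels were 124.3, 124.0 and 131 TPM in Olfr160, 283, 196 and 272 in Olfr73 and 255, 276 and 200.2 in Olfr1507. All 6 Olfr73 and Olfr1507 libraries lay above the 3 Olfr160 libraries, and those 2 groups overlapped each other. The log2 fold change over Olfr160 was 1.13 in Olfr1507 (SE 0.16, edgeR adjusted p = 0.000499) and 1.08 in Olfr73 (SE 0.16, adjusted p = 0.00408), while Olfr1507 over Olfr73 gave 0.049 (SE 0.16, adjusted p = 0.825). Both calls held on leaving out each library in turn. With only Olfr160 library 3 the folds were 1.10, still called, and 1.04, no longer called. The gene overlaps Mars1, a methionyl-tRNA synthetase gene on the opposite strand, by 68 of 1713 exonic bases, and GENCODE holds 2 gene models under the name Ddit3.

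Among the target genes, Trib3 (chr2:152337422-152344032, minus strand), which encodes a pseudokinase that feeds back on ATF4 and CHOP, was at 55.1, 49.8 and 42.0 TPM in Olfr160, 101, 56.7 and 66.4 in Olfr73 and 149, 134 and 109.6 in Olfr1507. The groups did not overlap, although the lowest Olfr73 library was close to the highest Olfr160 library. Its log2 fold change was 1.63 (SE 0.20, edgeR adjusted p = 0.000259) in Olfr1507 over Olfr160 and 1.00 (SE 0.20, adjusted p = 0.00517) over Olfr73. In Olfr73 over Olfr160 it was 0.63 (SE 0.20, adjusted p = 0.0584), which passed the threshold only without Olfr73 library 2 (0.75) among the libraries left out in turn. The 2 calls in Olfr1507 held on leaving out each library, with library size alone (1.20 and 0.68) and with only Olfr160 library 3 (1.91 and 1.01).

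Sesn2 (chr4:132492032-132510501, minus strand) encodes sestrin 2, a leucine-binding inhibitor of mTORC1 signalling. It was at 4.48, 7.48 and 8.66 TPM in Olfr160, 8.81, 6.05 and 4.09 in Olfr73 and 18.7, 11.8 and 10.5 in Olfr1507. Every Olfr1507 library lay above the other 6, which overlapped. The log2 fold change was 1.18 (SE 0.34, edgeR adjusted p = 0.0171) over Olfr160, 1.27 (SE 0.34, adjusted p = 0.0184) over Olfr73 and -0.087 (SE 0.34, adjusted p = 0.884) in Olfr73 over Olfr160. Without Olfr1507 library 1 neither call was kept (0.92 and 1.01). The call over Olfr160 was also lost without Olfr160 library 1 (0.95), with library size alone (0.78) and with only Olfr160 library 3 (0.87).

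Asns (chr6:7675169-7693254, minus strand), encoding asparagine synthetase, a classic ATF4 target, differed least of the genes called over Olfr160. It was at 83.8, 88.8 and 104 TPM in Olfr160, 99.4, 94.5 and 72.4 in Olfr73 and 109.7, 99.2 and 105 in Olfr1507. The Olfr1507 range overlapped both others in TPM and lay above both in TMM-scaled CPM. The log2 fold change was 0.38 (SE 0.13, edgeR adjusted p = 0.0371) over Olfr160 and 0.43 (SE 0.13, adjusted p = 0.0311) over Olfr73, against -0.051 (SE 0.13, adjusted p = 0.819) in Olfr73 over Olfr160. Leaving out any of the Olfr1507 libraries ended both calls (0.37 to 0.41 over Olfr160 and 0.42 to 0.46 over Olfr73), as did leaving out Olfr160 library 1 (0.33) or 2 (0.37) for the former and Olfr73 library 3 (0.31) for the latter. With library size alone the value over Olfr160 was -0.037, and with only Olfr160 library 3 it was 0.26 and not called.

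Chac1 (chr2:119351229-119354381, plus strand), which encodes an enzyme that breaks down glutathione and is induced by the ATF4 and CHOP pathway, was at 4.48, 5.87 and 6.92 TPM in Olfr160, 9.15, 6.43 and 3.12 in Olfr73 and 11.7, 6.79 and 4.57 in Olfr1507. The groups overlapped, and each of Olfr73 and Olfr1507 spread more than 2-fold within itself. On 50 to 170 counts per library, its log2 fold changes were 0.60, 0.45 and 0.16 (SE 0.46 each) in the 3 comparisons, with edgeR adjusted p of 0.301, 0.469 and 0.843.

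**Figure D2:**
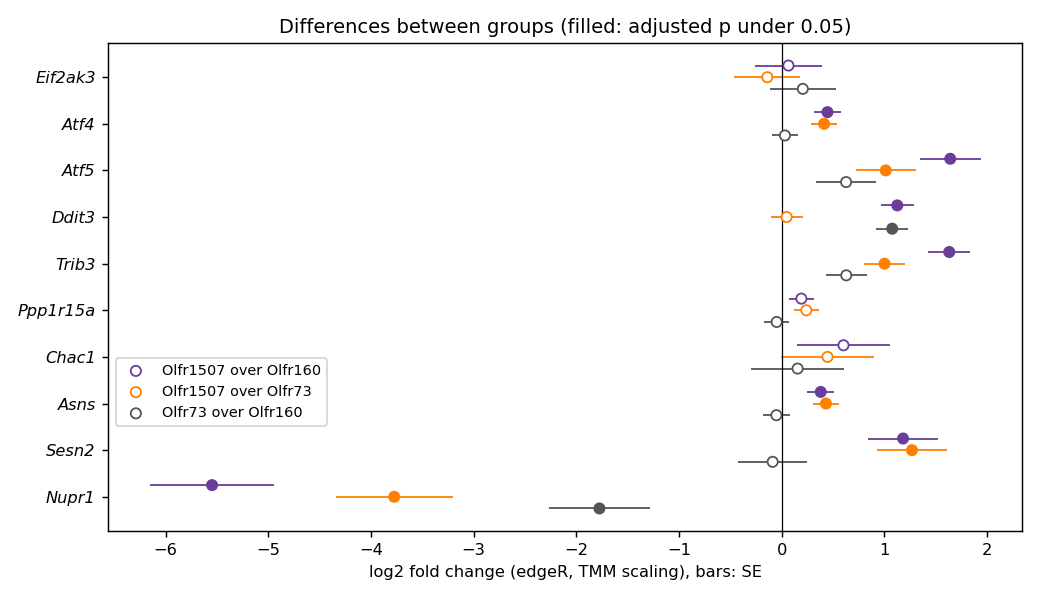
Log2 fold change of each of the 10 genes (x axis, edgeR with TMM scaling, bars are the SE) in Olfr1507 over Olfr160 (purple), Olfr1507 over Olfr73 (orange) and Olfr73 over Olfr160 (grey), with filled points where the adjusted p is under 0.05. Trib3 and Atf5 are near 1.6 and 1.0 in the Olfr1507 comparisons, Ddit3 is near 1.1 in both comparisons with Olfr160, and Nupr1 is negative in all 3; with scaling to transduction genes Ddit3 turns to -0.42 in Olfr1507 over Olfr160 and the other directions given for these genes are kept in that comparison.

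Nupr1 was lower in Olfr1507, opposite in direction to the 6 genes called higher over Olfr160. It encodes a small stress-induced chromatin protein, and its gene (chr7:126623249-126630861, minus strand) was at 453, 268 and 205 TPM in Olfr160, 146, 64.1 and 51.2 in Olfr73 and 4.66, 8.47 and 2.56 in Olfr1507. No groups overlapped, and the highest library was 177 times the lowest. The log2 fold change was -5.55 (SE 0.60, edgeR adjusted p = 0.000125) in Olfr1507 over Olfr160, -3.77 (SE 0.57, adjusted p = 0.00138) in Olfr1507 over Olfr73 and -1.77 (SE 0.49, adjusted p = 0.0374) in Olfr73 over Olfr160. The first 2 calls held on leaving out each library and with only Olfr160 library 3 (-4.93 and -3.79). The last did not hold without Olfr160 library 1 (-1.35) or 2 (-1.89), without Olfr73 library 2 (-1.66) or 3 (-1.51), or with only Olfr160 library 3 (-1.15).

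Most markers of other cells were also lower in Olfr1507. All 18 sustentacular and gland markers were lower in Olfr1507 than in Olfr160, 15 of 18 were lower than in Olfr73, and 14 of 18 were lower in Olfr73 than in Olfr160, with median log2 fold changes of -5.98, -3.61 and -2.28. The corresponding medians were -4.69, -3.36 and -1.52 for 9 respiratory epithelium markers tested and -5.94, -3.64 and -2.24 for 10 markers of basal cells and progenitors. Of the 9 respiratory markers 6 were lower and 3 higher in Olfr1507 over each other group, the higher ones being Foxj1, Dynlrb2 and Sec14l1, and of 9 microvillar and brush cell markers 7 were lower over Olfr160 and 3 over Olfr73, with Pou2f3 higher in both. These 4 were named after their values were seen. Summed shares ran from 0.0295% to 0.0588% of counts in Olfr160 and from 0.000341% to 0.000823% in Olfr1507 for basal cells, and from 0.0261% to 0.0908% and 0.000361% to 0.00117% for immune and red blood cells. Within Olfr160, Nupr1 was highest in library 1, whose respiratory share was the highest (1.46%), while the sustentacular and gland share was highest in library 2 (5.27%). The 3 genes whose levels ran closest to Nupr1 over the 9 libraries were Slc4a11, Klf6 and Cyp2j6 (Pearson r of log2(TPM + 1) 0.996, 0.995 and 0.995, among 7574 other genes with a mean of at least 10 TPM). In such bulk libraries, fewer cells of a type and less RNA per cell cannot be told apart, and the part of these cells in the Nupr1 difference was not tested.

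**Figure D3:**
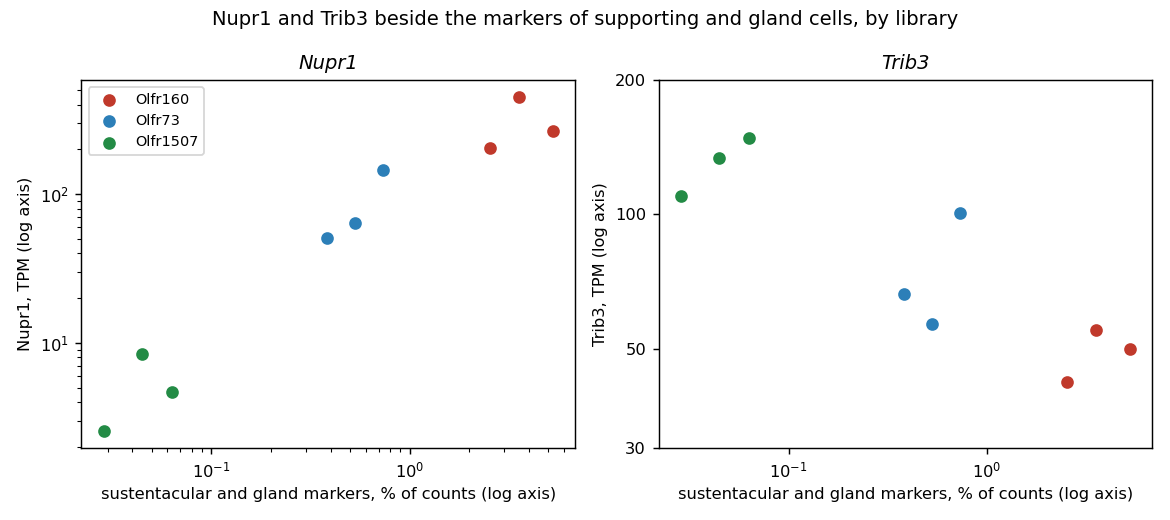
TPM of Nupr1 (left) and Trib3 (right) against the summed share of sustentacular and gland markers in the counts of the same library (x axis, percent), all on log axes, 1 point per library, coloured by group. Nupr1 runs from 2.56 TPM at 0.0287% to 453 TPM at 3.55%, and Trib3 is highest in the Olfr1507 libraries, which have the lowest shares.

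Across libraries, part of the 10 genes went up and down together inside the groups as well. In TPM, the highest Olfr1507 values of Atf4, Atf5, Trib3, Chac1, Asns and Sesn2 were all in library 1, where Ppp1r15a was lowest. The highest Olfr73 values of Atf4, Ppp1r15a, Chac1, Asns, Sesn2 and Nupr1 were in library 1 and the lowest in library 3. With TMM-scaled CPM, Asns was instead highest in Olfr1507 library 3 and Olfr73 library 2. In Olfr160 the lowest Eif2ak3, Atf4, Atf5, Chac1, Asns and Sesn2 were in library 1 and the highest in library 3. Trib3, Ppp1r15a and Nupr1 ran the other way there, highest in library 1 and lowest in library 3. Over all 9 libraries, the highest Pearson's r of log2(TPM + 1) were 0.958 for Atf4 with Sesn2, 0.881 for Atf4 with Chac1 and 0.868 for Asns with Sesn2. Next came 0.823 for Atf4 with Asns, 0.811 for Atf5 with Sesn2 and 0.803 for Atf5 with Trib3. The lowest values were -0.848 for Atf5 with Nupr1, -0.819 for Trib3 with Nupr1 and -0.756 for Eif2ak3 with Ppp1r15a. The points share library, depth and cell composition, so these values are descriptions.

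Other genes ran as close to single members as the members did to each other. Snx3 (r = 0.965), Prelid1 and Brox were nearest to Atf4, Golga3 (0.980), Dnaja2 (0.979) and AU040320 to Atf5, and Tapbpl (0.971), Cd47 and Kalrn to Ddit3. Nearest to Trib3 were Etv3 (0.984), Myo5b and Rnf185, and to Sesn2 Zdhhc13 (0.979), Mon1b and Snrnp40. Chac1 was closest to Plekhm1 (0.975), Fbxo7 and Phrf1, Asns to Wdr11 (0.955), Washc5 and Gm45902, and Eif2ak3 to Tug1 (0.963), Crebbp and Mapkap1. Ppp1r15a had no equally close gene, with Ppil2 (0.890), Platr14 and Tshz3 as its nearest.

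The other kinases, phosphatase subunits and eIF2 or eIF2B subunits, 18 genes and all tested, differed in part. Of these, 6 were higher and 2 lower in Olfr1507 than in Olfr160 (median log2 fold change 0.071), and 7 were higher and 2 lower than in Olfr73 (median 0.33), beside the shares of all genes given above. RLE size factors or only Olfr160 library 3 gave 2 higher calls over Olfr160, library size alone gave 2 higher and 7 lower over Olfr160 and 3 lower over Olfr73, and 2 were higher over Olfr73 without Olfr1507 library 1 or 2. The 7 higher calls over Olfr73 were all lost with library size alone and by limma-trend on log2(TPM + 1) or log2(TPM + 0.1), with 3 and 5 at an unadjusted p under 0.05. With scaling to transduction genes, which moved the medians of all genes to -1.69 and -1.01, 16 and 5 of the list were lower. That scaling called 13897 and 9270 of all genes in either direction. Ppp1r15b, the constitutive counterpart of Ppp1r15a, was at 21.6, 31.0 and 33.3 TPM in Olfr160, 48.5, 33.4 and 41.0 in Olfr73 and 83.6, 69.5 and 44.97 in Olfr1507. Its log2 fold change over Olfr160 was 1.46 (SE 0.28, edgeR adjusted p = 0.00267), and -0.017 when scaled to transduction genes. With only Olfr160 library 3 it was 1.19 and not called. Eif2b4, a subunit of the exchange factor that eIF2 phosphorylation blocks, was at 72.8 to 75.5 TPM in Olfr160, 84.4 to 94.7 in Olfr73 and 106 to 109 in Olfr1507, with a log2 fold change of 0.75 (SE 0.090, adjusted p = 0.000211) over Olfr160 and -0.80 with transduction scaling. The 2 lower genes in both comparisons were Ppp1cb, a catalytic subunit of protein phosphatase 1 (-0.63 and -0.67, the former -0.46 and not called with only Olfr160 library 3), and Impact, an inhibitor of the kinase GCN2, which was named after its values were seen (-0.88 and -0.90). Impact was not called over Olfr160 without library 1 or 3 of Olfr160 or library 1 or 2 of Olfr1507 (-0.78, -0.84, -0.71 and -0.76), or with only Olfr160 library 3 (-0.93). Over Olfr73 it was not called without library 1 or 2 of Olfr73 or library 1 or 2 of Olfr1507 (-0.65, -0.93, -0.73 and -0.79). In Olfr73 over Olfr160 the 1 call of the list was Nck1, an adaptor linked to eIF2alpha dephosphorylation (-0.70, adjusted p = 0.0497), which was lost on leaving out any library but Olfr1507 library 3 (-0.53 without Olfr73 library 1) and with only Olfr160 library 3 (-0.66).

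Genes known as targets of ATF4 and CHOP did not move as a block. Of 50 on the list 45 were tested, and 19 were higher and 12 lower in Olfr1507 than in Olfr160 (median log2 fold change 0.43), 14 higher and 9 lower than in Olfr73 (median 0.13), and 8 higher and 5 lower in Olfr73 than in Olfr160 (median 0.11). Of all genes tested, 20.7% were called higher and 27.7% lower in the first comparison, 14.5% and 19.9% in the second, and 7.45% and 10.5% in the third. Library size alone gave 10 higher and 14 lower, 2 higher and 12 lower, and 6 higher and 6 lower, and scaling to transduction genes 2 higher and 39 lower, 2 higher and 26 lower, and 17 lower. The latter scaling called 13897, 9270 and 5131 of all genes in either direction. With only Olfr160 library 3 the counts over Olfr160 were 11 higher and 7 lower in Olfr1507. Over Olfr73, limma-trend on log2(TPM + 1) or log2(TPM + 0.1) gave 3 higher calls, and limma-voom gave 4 lower. On leaving out each library the counts over Olfr73 ran from 7 to 15 higher and from 4 to 7 lower. The fewest higher calls came without Olfr73 library 3 or Olfr1507 library 1. In Olfr73 over Olfr160 they ran from 1 to 12 higher and from 2 to 5 lower, the fewest of each without Olfr160 library 2, and with only Olfr160 library 3 edgeR called none of the list (7 higher and 4 lower at an unadjusted p under 0.05).

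The 2 targets that stayed higher in Olfr1507 with every scaling and every library left out were Herpud1 and Gpt2. Herpud1, a membrane protein of endoplasmic reticulum-associated degradation, was at 381, 414 and 380 TPM in Olfr160, 387, 365 and 351 in Olfr73 and 1380, 1434 and 1207 in Olfr1507. All Olfr1507 libraries were far above the others, with log2 fold changes of 2.00 (SE 0.10, edgeR adjusted p = 6.92e-06) over Olfr160 and 2.07 (SE 0.10, adjusted p = 5.41e-06) over Olfr73. Gpt2, the mitochondrial alanine aminotransferase, was at 24.2 to 33.9 TPM in Olfr160, 21.99 to 31.1 in Olfr73 and 107 to 114 in Olfr1507, a log2 fold change of 2.20 (SE 0.16, adjusted p = 1.83e-05) and 2.19 (SE 0.16, adjusted p = 3.56e-05). The 12 aminoacyl-tRNA synthetases of the list, a subset formed after the values were seen, gave 11 higher calls in Olfr1507 over Olfr160, 8 over Olfr73 and 4 in Olfr73 over Olfr160. Beside these, 20.7%, 14.5% and 7.45% of all genes were called higher. With transduction scaling the only 2 higher calls of the list in Olfr1507 were Herpud1 and Gpt2, and Olfr73 over Olfr160 had 0. None of the synthetase calls was thus kept.

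Phgdh, Ndrg1, Psat1 and Vldlr were among the targets lower in Olfr1507. Of 6 enzymes of serine, glycine and folate metabolism on the list, a subset formed after the values were seen, 2 were lower, 1 higher and 3 not called over Olfr160, and 2 were lower and 2 higher over Olfr73. Of all genes, 27.7% were called lower and 20.7% higher over Olfr160, and 19.9% and 14.5% over Olfr73. Phgdh, the first enzyme of serine synthesis, was at 51.3, 48.9 and 26.2 TPM in Olfr160, 10.5, 6.87 and 7.76 in Olfr73 and 0.390, 1.42 and 0.170 in Olfr1507. The Olfr1507 libraries held 7, 3 and 3 Phgdh counts and the others 132 to 1052, so the fitted folds against Olfr1507 depend on the prior count. The fitted log2 fold changes were -7.47 (SE 0.49, edgeR adjusted p = 1.32e-05) in Olfr1507 over Olfr160, -5.18 (SE 0.47, adjusted p = 0.000112) over Olfr73 and -2.29 (SE 0.35, adjusted p = 0.00458) in Olfr73 over Olfr160. Ndrg1, a stress- and hypoxia-responsive gene, had a log2 fold change of -4.58 and Psat1, the second enzyme of serine synthesis, one of -3.82 in Olfr1507 over Olfr160. Vldlr, a lipoprotein receptor, was at 2.80 to 3.74 TPM in Olfr160, 4.96 to 7.64 in Olfr73 and 0.940 to 1.74 in Olfr1507, lower by a log2 fold change of -2.60 against Olfr73 (SE 0.24, adjusted p = 0.000125). The groups in which Phgdh, Psat1 and Ndrg1 were high were those with the larger shares of supporting, gland and respiratory markers, in the same order as for Nupr1, and the part of those cells was not tested. Of the transporters, 2 were nearly absent from Olfr1507, Slc7a11 with 0, 0 and 1 counts and Slc1a5 with 0, 3 and 0, so no fold is given. Cebpb had 0 counts in every library, which allows up to 0.0828 to 0.174 CPM (counts scaled to the library total) at 3 counts per library. In Olfr73 over Olfr160 the amino acid transporter Slc7a5 was among the 8 higher genes (log2 fold change 0.81, adjusted p = 0.00924). The 5 lower genes there were Phgdh, Psat1, Ndrg1, Atf3 and Cth, the last 2 named after their values were seen. With only Olfr160 library 3 the call in this comparison was lost for each of Slc7a5, Phgdh, Psat1, Ndrg1, Atf3 and Cth (0.57, -1.59, -1.72, -1.36, -1.43 and -1.25), and 61 of all genes were called in place of 2936.

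**Figure D4:**
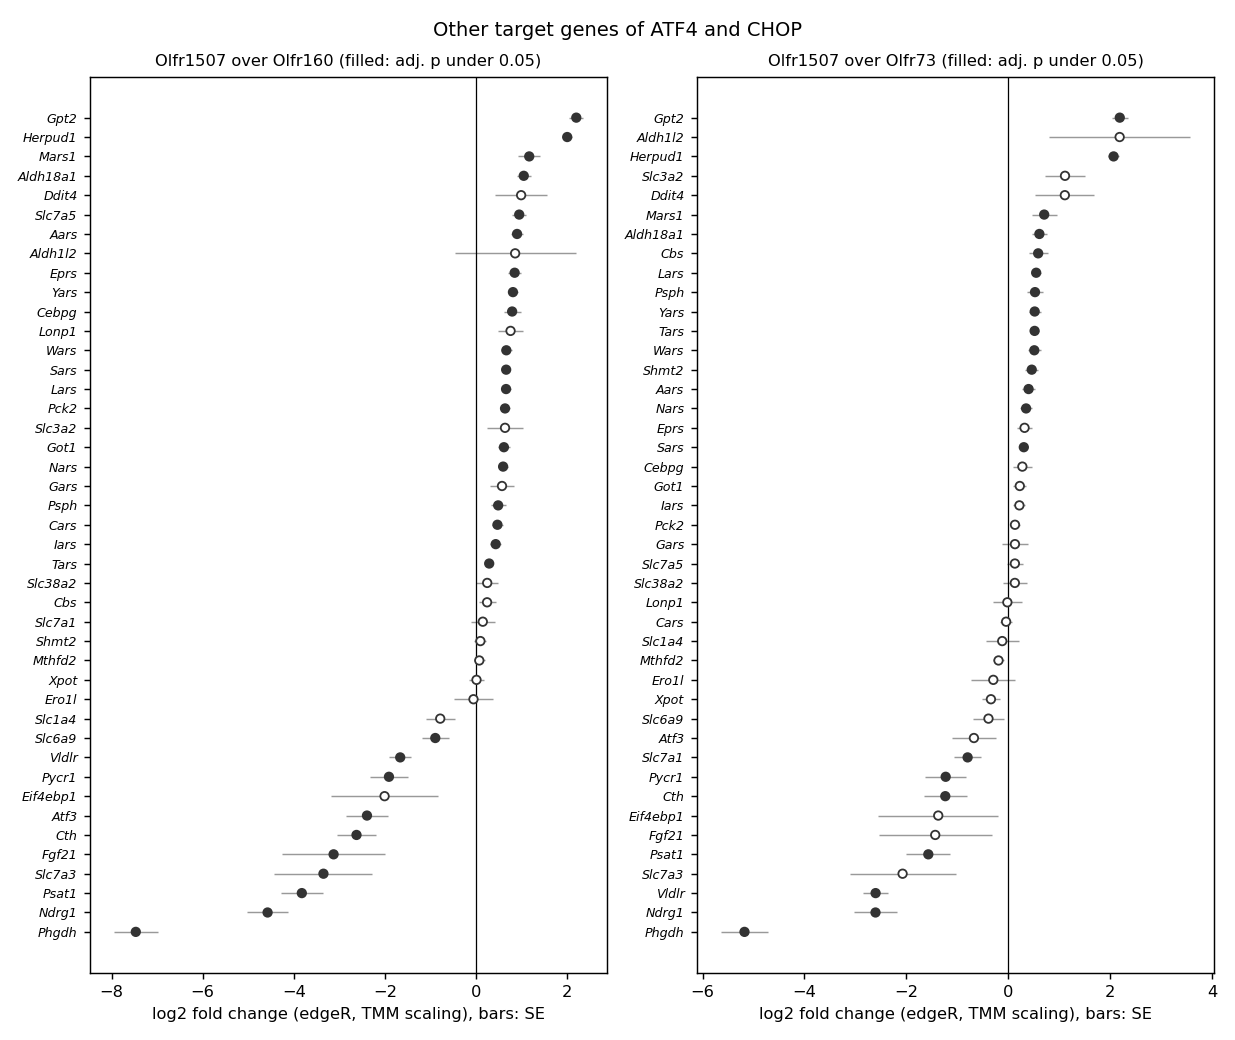
Log2 fold change (x axis, edgeR with TMM scaling, bars are the SE) of the tested targets of ATF4 and CHOP in Olfr1507 over Olfr160 (left) and over Olfr73 (right), filled where the adjusted p is under 0.05, without Slc7a11 and Slc1a5, which had 0 to 3 counts per Olfr1507 library. Gpt2 and Herpud1 are the highest filled points, at about 2 in both panels. Phgdh, with 3 to 7 counts per Olfr1507 library, is lowest at a fitted -7.47 and -5.18. Most genes between 0 and 1 turn negative when libraries are scaled to transduction genes. With that scaling 39 and 26 of the list are called lower, and 13897 and 9270 of all genes are called in either direction.

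Maturation genes are given beside the stress genes because the groups differed in them too. Of 19 mature olfactory neuron genes, 17 were higher in Olfr1507 than in Olfr160 (median log2 fold change 1.36), 10 higher than in Olfr73 (0.68), and 9 higher in Olfr73 than in Olfr160 (0.54), beside 20.7%, 14.5% and 7.45% of all genes called higher. Examples in Olfr1507 over Olfr160 and, where a second value is given, over Olfr73 were Stoml3, a ciliary membrane protein (1.87 and 1.38), the transduction channel gene Cnga2 (1.80 and 1.22) and the adenylyl cyclase gene Adcy3 (1.60), whose adjusted p lay between 7.49e-05 and 0.00107 by edgeR. The median fold over Olfr160 of these genes exceeded that of the 10 stress genes, 0.52. With library size alone 14 of the 19 were higher over Olfr160. Scaling to transduction genes, which shares many of its genes with this list, gave 2 higher and 7 lower over Olfr160. In that fit 13897 of all genes were called in either direction. The 9 higher calls in Olfr73 over Olfr160 ranged from 2 to 16 on leaving out each library (2 without Olfr160 library 2, 16 without Olfr160 library 3) and were 1 with only Olfr160 library 3.

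Of 20 immature neuron genes, 9 were lower and 4 higher in Olfr1507 than in Olfr160 (median log2 fold change -0.54), 6 lower and 3 higher than in Olfr73 (-0.24), and 7 lower and 3 higher in Olfr73 than in Olfr160 (-0.41). Beside these, 27.7%, 19.9% and 10.5% of all genes were called lower and 20.7%, 14.5% and 7.45% higher. Over Olfr73 the lower calls were 3 without Olfr1507 library 1 or 3. In Olfr73 over Olfr160 there were 2 to 6 lower and 1 to 3 higher calls on leaving out each library, the fewest without Olfr160 library 2, and edgeR made no call with only Olfr160 library 3 (7 lower and 3 higher at an unadjusted p under 0.05). Neurod1, a factor of neuronal precursors, was at 59.0, 89.7 and 37.3 TPM in Olfr160, 17.3, 12.0 and 12.2 in Olfr73 and 0.350, 0.550 and 0.550 in Olfr1507, and Tubb3, a neuronal tubulin, fell by 1.72 on the log2 scale over Olfr160 and by 1.27 over Olfr73. The higher genes over Olfr160 were Stmn4 (1.31), Dcx (0.89), Crmp1 (0.87) and Ncam1 (0.66), those over Olfr73 Stmn4 (0.71), Lhx2 (0.76) and Crmp1 (0.64), and those in Olfr73 over Olfr160 Stmn4 (0.60), Dcx (0.76) and Ncam1 (0.87). With transduction scaling each of these higher calls was lost, Stmn4 being at -0.22, -0.15 and -0.072. In Olfr1507 over Olfr160, Dcx (-0.61), Crmp1 (-0.61) and Ncam1 (-0.81) were then called lower instead. Crmp1 and Ncam1 were named after their values were seen. Crmp1 over Olfr160 was not called with only Olfr160 library 3 (0.51). Ncam1 over Olfr160 was not called without Olfr160 library 1 (0.44) or 2 (0.66) or Olfr1507 library 1 (0.62) or 2 (0.62), with library size alone (0.25) or with only Olfr160 library 3 (0.25), nor was Crmp1 over Olfr73 without any of the Olfr1507 libraries (0.63 to 0.67) or Olfr73 library 2 (0.57). The stress genes thus differed between groups whose libraries also differed in markers of maturity, in the share of the tagged receptor and in other cell types, and these cannot be told apart with this design.

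**Figure D5:**
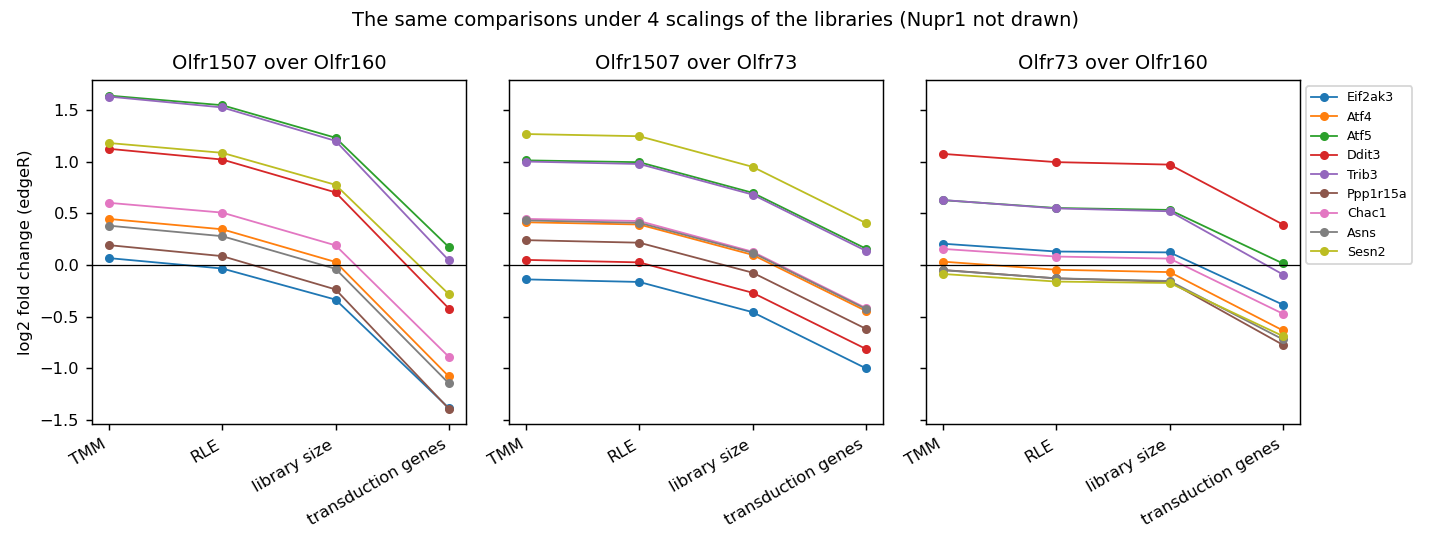
Log2 fold change of 9 of the 10 genes (y axis, Nupr1 not drawn) under 4 scalings of the libraries (x axis: TMM, RLE size factors, library size alone and olfactory transduction genes) in each of the 3 comparisons. All lines fall from left to right, and in Olfr1507 over Olfr160 Trib3 goes from 1.63 to 0.045, Atf5 from 1.64 to 0.17 and Ddit3 from 1.13 to -0.42, while the order of the genes hardly changes.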

How the data were processed

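Per the labels' protocols, RNA of sorted cells was made into libraries with a low-input kit. Per the submitters' processing notes, the tools were STAR 2.6.1, RSEM 1.3.1 and DESeq2 with mm10. For the annotation release, and for the settings, the entry is: not given in the sources used here. One table deposited by the authors holds expected counts from RSEM, and another TPM, both per gene. Between 4.06% and 5.54% of the expected counts of a library were not whole. Column names carry older receptor names, matched through RefSeq synonyms. Coordinates are from GENCODE M21, which held 98.7% of the tables' transcript identifiers. A promoter match was called inside an exon from the same annotation.

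Expected counts were rounded and tested in edgeR 4.0.16 (R 4.3.3). Low genes were removed with filterByExpr, leaving 16399, and libraries were scaled by TMM before a robust quasi-likelihood fit of the 9 libraries with a mean per group. P-values were adjusted by Benjamini-Hochberg over all genes tested and called under 0.05. The SE is the log2 fold change divided by the square root of F. Such p-values reflect the spread among the deposited libraries alone, which may be technical. The fit was also run on simulated counts with few changed genes, as many raised as lowered. That does not test the scaling where many genes differ, as here.

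The members and gene lists were chosen with earlier results of these data known. All 10 members were to be named, up to 4 genes of each list per comparison with the lowest adjusted p, of which the text gives part, and the 3 genes nearest to each member. Alternatives were RLE size factors, library size alone, scaling to transduction genes, Olfr genes left out, DESeq2 1.42.0, no filter, at least 5 CPM in 3 libraries, limma-voom and limma-trend (limma 3.58.1) on log2(TPM + 1) and log2(TPM + 0.1), a replicate block, counts without rounding, a fit of the 6 libraries compared, Olfr160 library 3 alone, an adjusted p of 0.01, and each library left out. Where 1 Olfr160 library remained, it was assumed to vary like the other groups.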

Additional observations from a re-analysis of the deposited data

How the results depend on the processing

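Of 720 values of the 10 genes under alternatives, 629 kept their side of the threshold, 74 lost the call and 6 gained it. A further 11 changed direction with a call in at least 1 of the 2 fits. The 629 include changes of direction where neither fit made a call. The 720 also hold gene comparisons that the main fit did not call, in which no call could be lost. The causes were not tested. With library size alone 3 of the 10 were higher in Olfr1507 over Olfr160 and 2 over Olfr73, and Asns over Olfr160 was -0.037. With transduction scaling 0 were higher and 5 lower in Olfr1507 over Olfr160, 0 and 3 over Olfr73, and 0 and 4 in Olfr73 over Olfr160. Changes of direction under this scaling are listed next where at least 1 of the 2 fits made a call. Others, such as Chac1 in Olfr1507 over Olfr160 (-0.89), are left out. This scaling turned, in Olfr1507 over Olfr160, Asns (-1.15), Atf4 (-1.08), Ddit3 (-0.42), Eif2ak3 (-1.39), Ppp1r15a (-1.39) and Sesn2 (-0.28), and of the listed genes Calr (-1.39), Creb3 (-0.74), Creb3l2 (-1.12), Crmp1 (-0.61), Dcx (-0.61), Eif2b4 (-0.80), Hsp90b1 (-0.58), Lhx2 (-1.17), Ncam1 (-0.81), Ppp1r15b (-0.017), Slc7a5 (-0.56) and Stmn4 (-0.22). In Olfr1507 over Olfr73 it turned Asns (-0.43), Atf4 (-0.45), Ddit3 (-0.81), Calr (-0.024), Crmp1 (-0.22), Dcx (-0.73), Eif2b4 (-0.38), Lhx2 (-0.098), Slc7a5 (-0.73) and Stmn4 (-0.15), and in Olfr73 over Olfr160 Atf4 (-0.64), Adcy3 (-0.32), Cnga2 (-0.046), Gpt2 (-0.65) and Stmn4 (-0.072).

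In Olfr1507 over Olfr160, 2 of the 10 were higher with only Olfr160 library 3 and 3 at an adjusted p of 0.01. Over Olfr73, 2 were higher by limma-trend on log2(TPM + 1) or log2(TPM + 0.1) and 1 at an adjusted p of 0.01. In Olfr73 over Olfr160, limma-voom called 2 higher, and edgeR called 0 lower with no filter, with only the 6 libraries compared and at 0.01, and 0 higher and 0 lower with only Olfr160 library 3. At an unadjusted p under 0.05 these lower counts were 1, 1, 1 and 0 and the higher count 2, and the higher counts with transduction scaling stayed 0. Over the 3 groups 4 passed 0.01. On leaving out each library the ranges were 3 to 6 higher and 1 to 1 lower, 1 to 5 and 1 to 1, and 1 to 2 and 0 to 1 in the 3 comparisons.

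No pairing by replicate number was seen: deviations of same-numbered libraries correlated at -0.193 to 0.130 over 9 pairs, 1 over 0.1, and a library correlated best with its own number in 7 of 18 searches. With 3 libraries per group this cannot show whether same-numbered libraries shared a batch. With the replicate number as a block, 2 of the 10 were higher in Olfr1507 over Olfr73 and 2 in Olfr73 over Olfr160. All genes called (7939, 5640 and 2936 in the 3 comparisons) became 13897, 9270 and 5131 with transduction scaling and 4969, 2837 and 769 at 0.01, 3337 in the first and 61 in the last with only Olfr160 library 3, and 4453 in the last by limma-voom. Without Olfr160 library 1 or 2 or Olfr73 library 3 the last gave 1408, 976 and 1878, and without Olfr1507 library 1 the second gave 3657. Counts per library, which limit the precision, were 79 to 248 for Eif2ak3, 50 to 170 for Chac1 and 14 to 2057 for Nupr1.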

Other observations

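The other arms of the unfolded protein response, IRE1 and ATF6, were also measured, with 23 of 24 listed genes tested. In Olfr1507 over Olfr160, 10 were higher and 3 lower (median log2 fold change 0.48, against -0.14 over all genes), in Olfr1507 over Olfr73 10 were higher (median 0.72), and in Olfr73 over Olfr160 4 were lower (median -0.085). Of all genes tested, 20.7% were called higher and 27.7% lower in the first comparison, 14.5% and 19.9% in the second, and 7.45% and 10.5% in the third. Library size alone gave 6 higher and 4 lower, 8 higher and 1 lower, and 5 lower. Creb3, a membrane-bound transcription factor, was higher in Olfr1507 by a log2 fold change of 0.82 over Olfr160 and 0.90 over Olfr73, Sel1l, a partner in endoplasmic reticulum-associated degradation, by 1.60 and 1.25, and Hsp90b1, the chaperone GRP94, by 0.95 and 1.11, each with an edgeR adjusted p between 0.000209 and 0.00152. When scaled to transduction genes, Creb3 gave -0.74 and 0.046 and Hsp90b1 -0.58 and 0.25, while Sel1l gave 0.096 and 0.39. Over Olfr160, 16 genes of the list were then lower, and 13897 of all genes were called in either direction. The 3 lower genes over Olfr160 were the chaperone genes Hyou1 (-1.24) and Pdia6 (-0.53) and the transcription factor gene Xbp1 (-1.63), the last named after its values were seen. With only Olfr160 library 3, Pdia6 (-0.32) and Xbp1 (-0.68) were not called, and 4 genes of the list were higher and 1 lower over Olfr160. The 4 lower genes in Olfr73 over Olfr160 were Pdia6 (-0.82), Hyou1 (-1.18), Creb3l2 (-1.07) and Calr (-0.67), and none was called with only Olfr160 library 3.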
